A study of Mus musculus with 2 samples.

Results

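Innate-like T cells with NK receptors were chosen by their own transcripts among the CD45-sorted cells of MB49 tumours. A member had at least 2 UMIs (unique molecular identifiers, each standing for 1 captured transcript) of Cd3d, Cd3e and Cd3g together. It also had at least 2 UMIs of the NK receptor genes Klra1, Klra5, Klra6, Klra7, Klrb1a and Cd160 together, and none of Cd4, Cd8a, Cd8b1, Foxp3, C1qa, C1qb or C1qc. Of 15259 cells that had 200 or more genes and no more than 20% mitochondrial UMIs, 259 met these limits. They were 117 of 7547 cells in the library labelled Lcn2-ko and 142 of 7712 cells in the wt library.

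The Ly49 receptors, encoded by the Klra genes, bind MHC class I molecules and set the threshold at which mouse NK cells respond. Some T cells carry the same receptors beside a T cell receptor, together with the signalling adaptors Fcer1g and Tyrobp, through which activating NK receptors and antibody receptors signal. Such cells include NKT cells, subsets of gamma delta T cells, and alpha beta T cells with neither Cd4 nor Cd8. They are called innate-like because they can respond to cytokines and stress ligands as well as to antigen.

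Each library came from CD45-positive live cells of MB49 tumour tissue, MB49 being a mouse bladder carcinoma line derived from a male mouse. The labels give 1 library with the genotype Lcn2-ko and 1 with the genotype wt, and nothing on pooling, strain or age. Lcn2 encodes lipocalin 2, a secreted protein that binds iron-carrying siderophores. Per the labels' protocol, male marrow, Lcn2-KO or WT, was given to lethally irradiated female hosts, so any host cell that survived irradiation kept its Lcn2 gene, and both groups share the irradiation and the transplant. The sex label is female, while another sentence of the protocol speaks of male and female tumours. The design therefore sets 1 library against 1 library, so no difference between them has a replicate check. Intervals printed here are 95% intervals that cover counting error only.

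The library labelled Lcn2-ko held 40959725 UMIs over 7788 barcodes, and the wt library 42069099 UMIs over 7974 barcodes. They shared 4 barcodes, none of them in a member. Members gave 447578 UMIs in the library labelled Lcn2-ko and 517401 UMIs in the wt library, with a median of 3226 UMIs per cell in both. Lcn2 had 633 UMIs over the kept cells of the library labelled Lcn2-ko and 704 UMIs over those of the wt library, so Lcn2 counts did not check the genotype label. The deleted part of the gene is not given in the sources used here. In members, Lcn2 was at 0 in both libraries, which allows up to 3 UMIs in each.

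Cells on both sides of the rule's limits are described here once. Of 258 cells in the library labelled Lcn2-ko that met every limit except the one on Cd8, 117 had no Cd8a or Cd8b1 UMI, 22 had 1 and 119 had 2 or more. The wt library had 142, 36 and 117 such cells among 295. In both libraries cells with no Cd8 UMI far outnumbered those with 1. Just outside the Cd8 limit, cells with 1 Cd8 UMI had a Cd7 level of 1936 CPM (UMIs of the gene scaled to a library sum of 1e+06) in the library labelled Lcn2-ko and 2199 in the wt library, against 1466 and 1477 in members. At the NK receptor limit, the 24 and 17 members with exactly 2 NK receptor UMIs had an Ikzf2 level of 580 CPM in the library labelled Lcn2-ko and 615 in wt. The 41 and 30 cells just outside, with 1 such UMI, had 246 and 320. Cd7 was also higher in those members, at 801 and 1178.5 CPM against 443 and 604 just outside. Other genes did not all follow: Xcl1 had 801 and 683 CPM against 591 and 696, and Trdc 111 and 102 against 98.5 and 270. At the Cd3 limit, the 7 and 4 members with exactly 2 Cd3 UMIs had a Trac level of 83.3 and 395 CPM. The 17 and 14 cells just outside, with 1 Cd3 UMI, had 55.5 and 105.

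**Figure D1:**
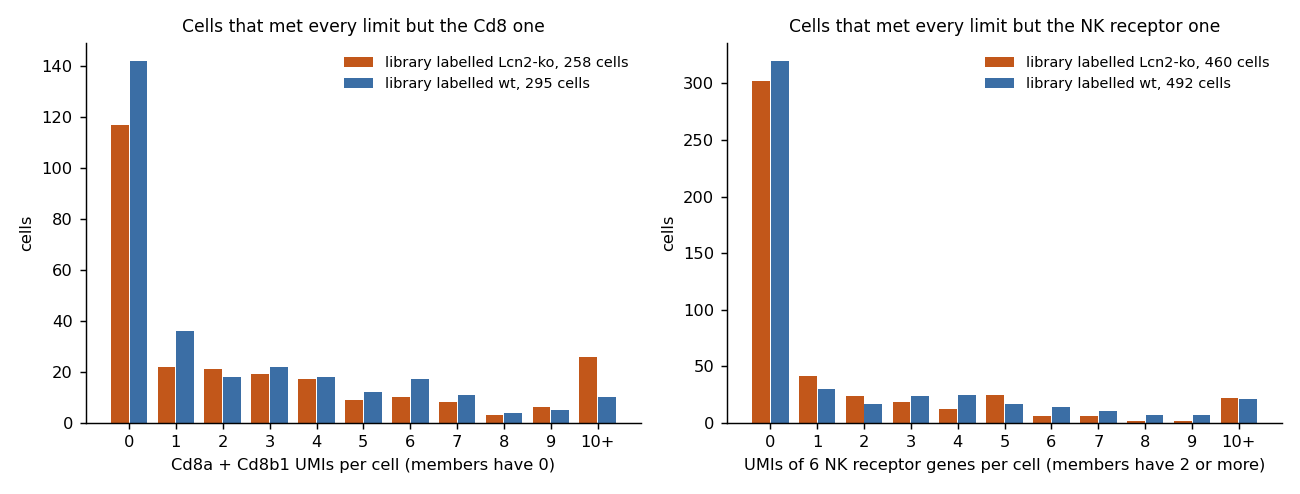
Number of cells (y axis) by UMIs per cell (x axis) for the last limits of the rule, in the library labelled Lcn2-ko (orange) and the wt library (blue). At left, 117 and 142 cells with no Cd8a or Cd8b1 UMI are the members, beside 22 and 36 cells with 1; at right, members are the cells with 2 or more NK receptor UMIs, beside 302 and 320 cells with none.

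Cd3 UMIs were also found outside T cells. Among cells with at least 5 C1q UMIs, a macrophage mark, 313 of 572 in the library labelled Lcn2-ko and 312 of 559 in the wt library reached the Cd3 limit. Their median Cd3 count was 2 UMIs in both libraries, against 8 in members of the library labelled Lcn2-ko and 7 in members of the wt library, although their median depth was 8891 and 9092 UMIs. Both the Cd3 and the NK receptor limit were met by 19 of 572 of these macrophages (3.32%, Clopper-Pearson interval 2.01 to 5.14%) and by 29 of 559 (5.19%, 3.50 to 7.37%), and the C1q limit kept all of these out. The part of free RNA or of cells captured together in the members' counts was not tested.

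Of the NK receptor genes that defined the members, the Ly49 gene Klra7 was found most often, and Cd160 came next. These values, having chosen the cells, are given as a description. Klra7, which encodes Ly49G and lies on chromosome 6 of mm10 (130218605 to 130233322, minus strand), was found in 61.5% of members of the library labelled Lcn2-ko and 57.0% of wt members. Klra1, which encodes Ly49A (chromosome 6, 130363917 to 130386874, minus strand), was found in 45.3% and 45.1%. Klra6 was found in 39.3% and 40.1%, and Klra5 in 23.9% and 20.4%. Cd160, a receptor for the TNF family protein HVEM on chromosome 3, was found in 53.0% and 54.9%. Klrb1a, an activating receptor of the NKR-P1 family, was found in 32.5% and 26.1%.

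UMIs of more than 1 of these receptor genes were found in most members. At least 2 of the 6 genes were found in 84.6% of members of the library labelled Lcn2-ko and 83.1% of wt members. The rule asked for at least 2 UMIs over these same genes, which favours cells with more than 1 of them. These shares are therefore a description. Counted over the 4 Ly49 genes alone, 42 members of the library labelled Lcn2-ko had 1 gene, 44 had 2, 15 had 3 and 6 had all 4. The wt members had 62, 47, 25 and 0. In 10 and 8 members no Ly49 gene was found, so that they entered through Cd160 or Klrb1a. Ly49 genes are close copies of each other: of the 50-base stretches in the last 400 bases of the annotated transcripts, Klra1 shared 7.80% with another Klra gene, and Klra5, Klra6 and Klra7 shared none. Outside the rule, Klra3 shared 36.6% and Klra9 37.7%, so counts could be split between those genes and their levels are uncertain.

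Of the given markers outside the rule, Cd7 and Xcl1 were each found in most members, and Trgc1 was not. Cd7, an immunoglobulin family receptor of T and NK cells, had UMIs in 91.5% of members of the library labelled Lcn2-ko and 94.4% of wt members. Xcl1, the chemokine that draws XCR1-positive dendritic cells, was found in 84.6% and 88.0%. In macrophages with C1q UMIs and no Cd3 UMI, cells that should lack both genes, Cd7 was found in 4.02% and 5.11% and Xcl1 in 9.77% and 3.41%, where the median depth was 5806 UMIs in the library labelled Lcn2-ko and 7026.5 in wt. After thinning each cell to 1000 UMIs, Cd7 was found in 59.0% and 71.1% of members and in 0.592% and 0.578% of those macrophages. Trgc1, a gamma chain constant gene, was found in 21.4% and 19.7% of members.

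Fcer1g, the gamma subunit shared by Fc receptors and activating NK receptors, had 586 UMIs in members of the library labelled Lcn2-ko (1309 CPM) and 599 in wt members (1158 CPM). Tyrobp, the adaptor DAP12 used by activating Ly49 receptors, had a level of 413 and 292 CPM. Ikzf2, the transcription factor Helios, had 626 and 499 CPM. Il2rb, the receptor chain shared by IL-2 and IL-15, had UMIs in 117 of 117 members of the library labelled Lcn2-ko and 140 of 142 wt members, and a level of 2884 and 2342 CPM. Macrophages also use Fcer1g and Tyrobp, which were found in 98.9% and 90.8% of C1q-positive cells without Cd3 in the library labelled Lcn2-ko.

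Genes that define invariant NKT cells were too low to place the members. Zbtb16, which encodes that factor PLZF, had 0 UMIs in members of the library labelled Lcn2-ko and 1 UMI in wt members, and was also at 0 in NK receptor cells without Cd3 of both libraries, so these counts do not show whether members lack it. Trav11 and Traj18, the segments of the invariant NKT receptor, were at 0 in members and in every kind of comparison cell, so they could not tell these cells apart. Klrb1c, the NK1.1 antigen of NK and NKT cells, was found in 45.3% and 52.1% of members. Il17a, Sox13, Blk, Cd163l1 and Il23r, genes of the IL-17 branch of gamma delta T cells, were at 0 in members of both libraries, and a count of 0 allows a level of up to 6.70 CPM in the library labelled Lcn2-ko and 5.80 in the wt library.

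For comparison, 3 kinds of cells outside the rule were used. NK receptor cells without Cd3 met the NK receptor limit with no Cd3 UMI, and numbered 87 and 80. Cd8 NK receptor T cells met the Cd3 and NK receptor limits with at least 2 Cd8 UMIs, and numbered 119 and 117. Cells that met the Cd3 limit with no Cd4, Cd8 or NK receptor UMI numbered 302 and 320. They are called T cells with neither Cd4 nor Cd8 by their Cd3 UMIs, which were also found outside T cells. Of them, 207 and 220 had a Ptprc UMI, the gene of CD45. At least 10 UMIs of markers of other cell types were found in 38.4% and 32.8%, so not all need be T cells. Since the rule itself divided members from the 3 kinds, the levels are a description. Ikzf2 had 626 and 499 CPM in members of the library labelled Lcn2-ko and wt, against 43.8 and 105 in NK receptor cells without Cd3 and 503 and 482 in Cd8 NK receptor T cells. Fcer1g had 1309 and 1158 CPM in members, against 930 and 944 in Cd8 NK receptor T cells and 1634 and 1496 in NK receptor cells without Cd3. Members thus lay with the Cd8 NK receptor T cells in Ikzf2 and between the other kinds in Fcer1g.

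**Figure D2:**
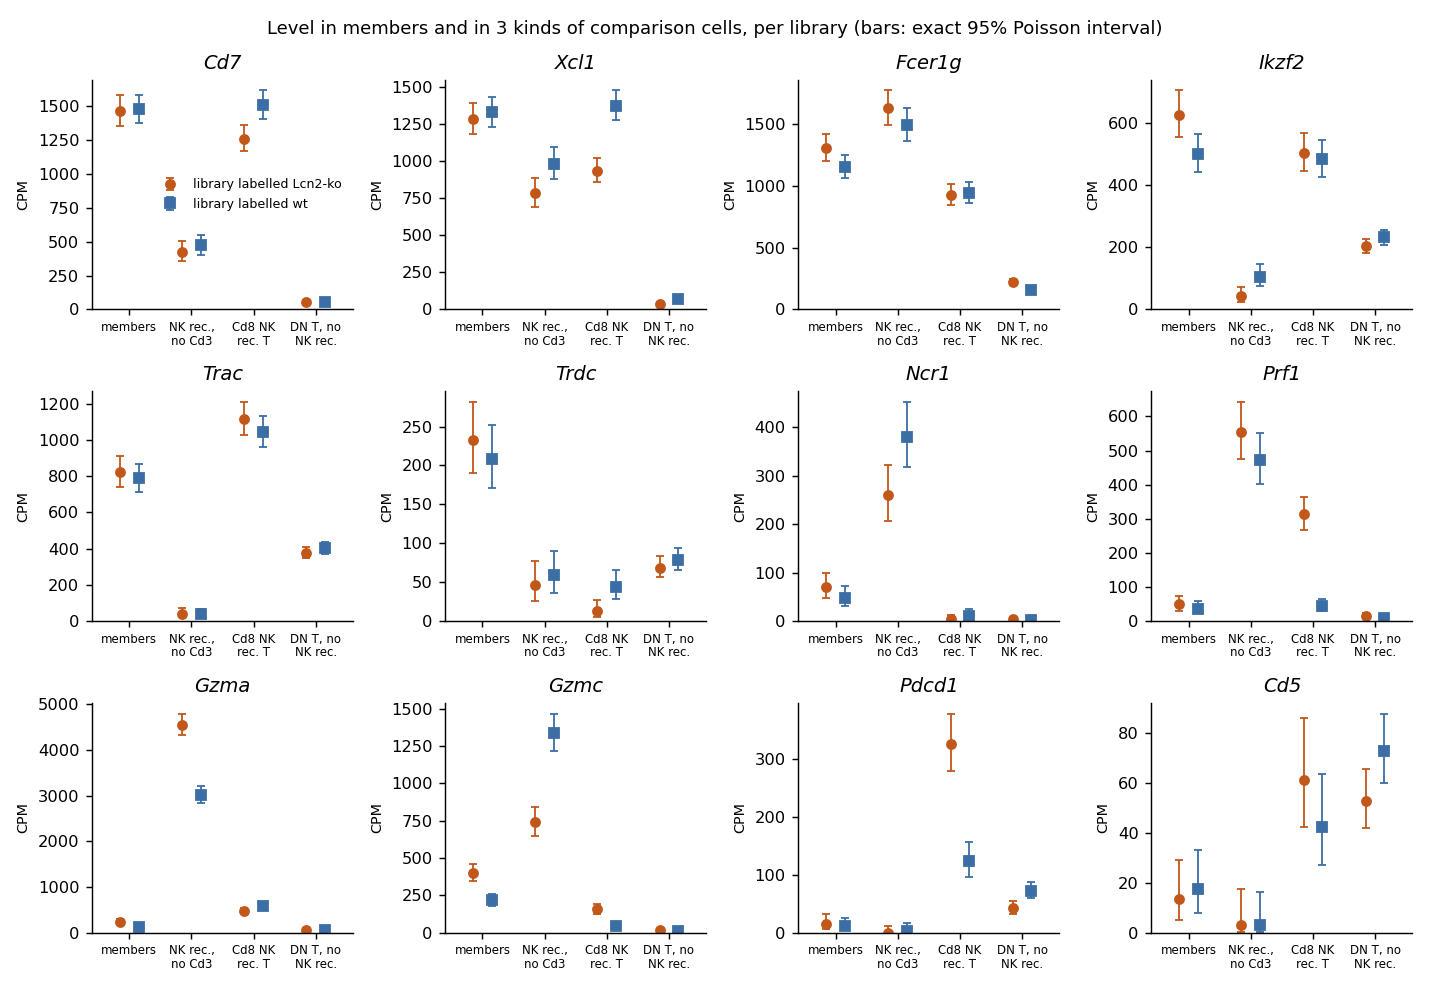
Level of 12 genes in CPM (y axis, from 0) in members and 3 kinds of comparison cells (x axis), for the library labelled Lcn2-ko (orange circles) and the wt library (blue squares), with exact Poisson intervals. Ikzf2 was 626 and 499 in members and 43.8 and 105 in NK receptor cells without Cd3, Gzma was 241 and 120 against 4555 and 3019, and Pdcd1 was 15.6 and 11.6 against 327 and 124 in Cd8 NK receptor T cells.

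Against NK receptor cells without Cd3, members were at least 2-fold higher in both libraries for 49 of 3325 genes with at least 50 UMIs, which is 1.47%. They were at least 2-fold lower for 71 genes, which is 2.14%. Killing genes were among the lowest. Gzma, which encodes the trypsin-like protease granzyme A, had 241 and 120 CPM in members of the library labelled Lcn2-ko and wt, against 4555 and 3019 in NK receptor cells without Cd3. Prf1, the pore-forming protein perforin, had 49.2 and 36.7 CPM against 554 and 471. Klri2, a killer cell lectin-like receptor, had 6.70 and 3.87 CPM in members, against 213 and 199. Klra8, the activating receptor Ly49H, had 15.6 and 17.4 CPM against 441 and 243, and all 7 of its UMIs in members of the library labelled Lcn2-ko lay in 1 cell. Klra4, which encodes Ly49D, had 8.94 and 5.80 CPM against 169 and 114. Eomes, a transcription factor of conventional NK cells, had 35.7 and 61.8 CPM in members, against 329 and 249.

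Trat1, an adaptor of the T cell receptor complex, had 42 and 64 UMIs in members and 0 in both sets of NK receptor cells without Cd3. With 3 counts in place of each 0, the log2 ratio of members to those cells was 3.32 and 3.82. The lower limits of the exact intervals were 2.96 and 3.48. Nsg2 likewise had 36 and 47 UMIs against 0 and 0. Mcpt4, Tpsb2, Cpa3, Mcpt2 and Cma1, proteases of mast cells, made up 5 of the 8 genes with the highest ratio. Their UMIs lay in few cells: Cpa3 was found in 1.71% and 0.704% of members, and 1 member in each library held at least 10 mast cell UMIs. Without cells that had at least 10 UMIs of markers of other cell types, the log2 ratio of Mcpt4 nearest to 0 over the libraries was -0.11.

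By these counts, members differed from Cd8 NK receptor T cells in the fewest genes. At least 2-fold higher in both libraries were 13 of 3739 genes (0.348%), and at least 2-fold lower 17 genes (0.455%). Lower genes included inhibitory receptors. Pdcd1, which encodes PD-1, had 15.6 and 11.6 CPM in members of the library labelled Lcn2-ko and wt, against 327 and 124 in Cd8 NK receptor T cells. Lag3 had 13.4 and 7.73 CPM against 79.8 and 48.0, and Havcr2, which encodes TIM-3, had 13.4 and 7.73 against 77.9 and 25.9. Cd6, a scavenger receptor that tunes T cell receptor signals, had 11.2 and 7.73 CPM against 70.5 and 38.8. Cd5, its relative, was also lower in members of both libraries, at 13.4 and 17.4 CPM against 61.2 and 42.5.

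Among the genes higher in members than in Cd8 NK receptor T cells were Klf2, Lef1, Ncr1 and Gzmc. Klf2, a transcription factor of quiescent T cells, had 273 and 354 CPM in members of the library labelled Lcn2-ko and wt, against 109 and 146 in Cd8 NK receptor T cells. Lef1, a transcription factor of early T cells, had 80.4 and 85.0 CPM against 22.3 and 29.6. Ncr1, the NK cell receptor NKp46, had 69.3 and 48.3 CPM in members, against 3.71 and 11.1 in Cd8 NK receptor T cells and 260 and 381 in NK receptor cells without Cd3. Gzmc, a granule protease, had 400 and 216 CPM in members, against 156 and 42.5 in Cd8 NK receptor T cells.

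Against T cells with neither Cd4 nor Cd8 and no NK receptor UMI, members were at least 2-fold higher for 258 of 7614 genes (3.39%) and at least 2-fold lower for 1327 (17.4%). Xcl1 had 1285 and 1332 CPM in members, against 39.9 and 67.7, and Cd7 had 1466 and 1477 against 52.1 and 55.3. These levels were not particular to members. The 3 given markers outside the rule, Cd7, Xcl1 and Trgc1, summed to 2862 and 2889 CPM in members. In Cd8 NK receptor T cells they summed to 2240 and 2955, and in NK receptor cells without Cd3 to 1211 and 1461. Many genes lower in members belonged to other cells. The 8 tumour and stromal markers summed to 306 and 273 CPM in members, against 5168 and 4709 in the cells with no NK receptor UMI. Sdc1 and Tm4sf1, surface proteins of epithelial cells, were among the lowest. Without cells that had at least 10 UMIs of markers of other cell types, 64 genes were higher and 213 lower of 3529.

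Trac was found without Trdc more often than the reverse, by a margin that depended on depth. Trac, the alpha chain constant gene on chromosome 14, was found without Trdc in 81 of 117 members of the library labelled Lcn2-ko (69.2%, Clopper-Pearson interval 60.03 to 77.4%) and in 102 of 142 wt members (71.8%). Trdc, the delta chain constant gene, was found without Trac in 14 members (11.97%) and 16 members (11.3%). Both chains were found in 6 and 9 members, and neither in 16 and 15. The shares with Trdc alone differed by 0.698 percentage points (Newcombe interval -7.13 to 8.97), so no difference between the libraries was detectable at this number of cells. After thinning to 1000 UMIs per cell, Trac without Trdc made up 44.4% and 47.9% of members, and with at least 2 UMIs asked of the chain 56.4% and 54.9%. In Cd8 NK receptor T cells Trac without Trdc made up 98.3% and 92.3%. In NK receptor cells without Cd3 neither chain was found in 74.7% and 70.0%, and Trdc without Trac in 11.5% and 17.5%, beside the 11.97% and 11.3% of members.

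Macrophages and NK receptor cells without Cd3 gave different backgrounds for the chains. In macrophages with C1q UMIs and no Cd3 UMI, Trac was found in 20.7% of cells of the library labelled Lcn2-ko and 23.9% of wt cells, and Trdc in none of 174 and none of 176 cells. In NK receptor cells without Cd3, Trdc was found, alone or with Trac, in 12 of 87 and 15 of 80 cells. After thinning to 1000 UMIs per cell, Trac was found in 46.2% and 48.6% of members and in 5.92% and 4.62% of those macrophages. Any Trdc UMI was found in 17.1% and 17.6% of members as counted. The gamma chain constant genes were found more widely, Trgc2 in 41.9% and 57.0% of members and in 2.30% and 0.568% of the macrophages. Trgc1 and Trgc2 shared 26.5% and 24.5% of their 50-base stretches with another gamma chain constant gene, so reads may be split between them.

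**Figure D3:**
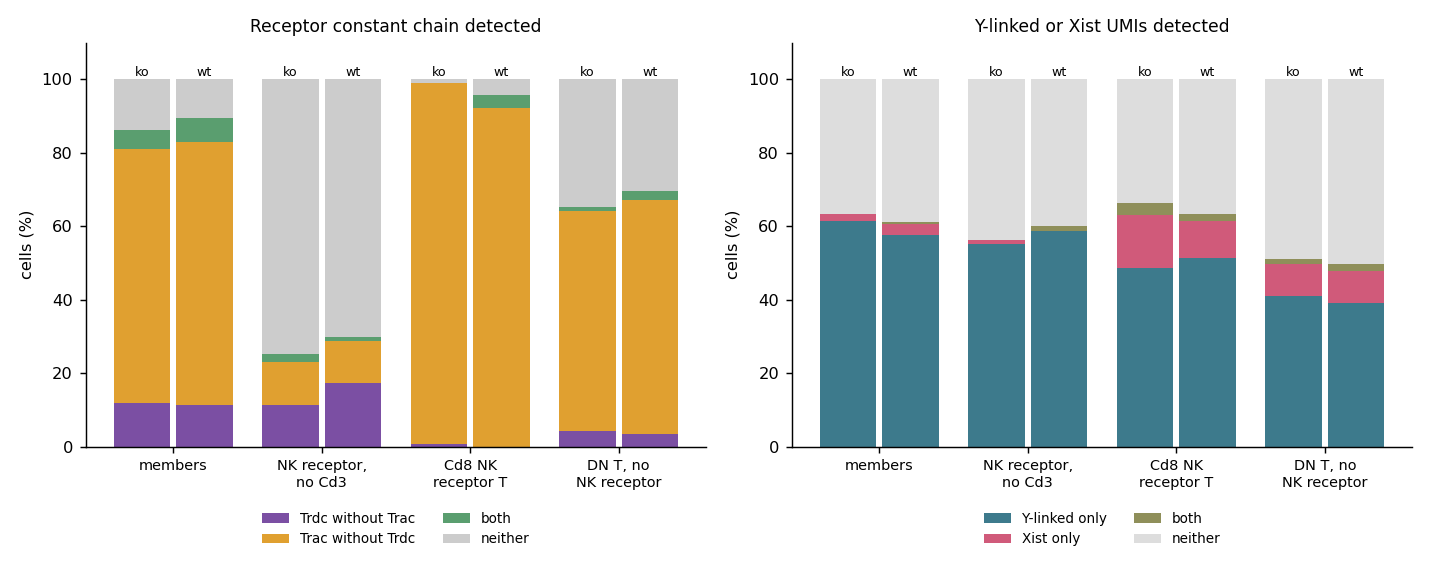
Share of cells (y axis, %) by receptor constant chain detected (left) and by Y-linked or Xist UMIs detected (right), for members and 3 kinds of comparison cells, with the library labelled Lcn2-ko (ko) left of the wt library. Trac without Trdc made up 69.2% and 71.8% of members, and Xist alone was found in 1.71% and 2.82% of members against 14.3% and 10.3% of Cd8 NK receptor T cells.

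Members with Trdc alone were set beside members with Trac alone. Tyrobp had a level of 659 and 649 CPM in members with Trdc alone of the library labelled Lcn2-ko and wt, against 335 and 216 in members with Trac alone. Ncr1 had 113 and 126 CPM against 49.2 and 34.2, and Trgc1 had 376 and 198 against 55.3 and 60.6. The beta chain genes were present as well: Trbc2 was found in 10 of the 14 and 11 of the 16 members with Trdc alone, at 772 and 343 CPM against 968 and 1027 in members with Trac alone. Trbc1 had 207 and 361 CPM against 283 and 211. Ikzf2 was lower in members with Trdc alone, at 414 and 252 CPM against 682 and 569. Cd7 had 1223 and 974 CPM against 1496 and 1573. These are values of few cells and were compared without a test, since cells of 1 library are not replicates.

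The protein NKp46 marks NK cells and few T cells, and Ncr1 UMIs were found in 23 of 117 members of the library labelled Lcn2-ko (19.7%) and 20 of 142 wt members (14.1%), against 0.575% and 0.568% of C1q-positive macrophages without Cd3. Their Trac level was 498 and 453 CPM, against 916 and 843 in members without Ncr1. Tyrobp had 876 and 495 CPM against 279 and 259, and Ikzf2 had 299 and 330 against 720 and 526. Among the members with Ncr1, 0 and 1 had a doublet score in the highest 4% of the library. What NK cells captured together with T cells added to these members was not tested further.

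Host and donor cells can be told apart in part, since the marrow was male and the hosts female, but MB49 cells also come from a male. Y-linked genes without Xist were found in 72 of 117 members of the library labelled Lcn2-ko (61.5%, Clopper-Pearson interval 52.1 to 70.4%) and 82 of 142 wt members (57.7%). Xist without a Y-linked gene was found in 2 (1.71%) and 4 (2.82%). Neither was found in 43 and 55, so these cells were not placed. Xist alone was found in 14.3% and 10.3% of Cd8 NK receptor T cells and in 8.61% and 8.75% of T cells with neither Cd4 nor Cd8 and no NK receptor UMI, and in 1 of 87 and 0 of 80 NK receptor cells without Cd3, of which the 0 allows a share of up to 3.75%. After thinning to 1000 UMIs per cell, Y-linked genes without Xist were found in 28.2% and 21.8% of members. The share of members with Y-linked UMIs only differed between the libraries by 3.79 percentage points (Newcombe interval -8.16 to 15.5), which was not detectable at this number of cells.

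Between the libraries, members made up 1.55% of kept cells in the library labelled Lcn2-ko (Clopper-Pearson interval 1.28 to 1.86%) and 1.84% in the wt library (1.55 to 2.17%). The difference of -0.291 percentage points had a Newcombe interval of -0.704 to 0.121, so it was not detectable at this number of cells. Of cells with at least 2 Cd3 UMIs, members were 2.93% of 3987 cells in the library labelled Lcn2-ko and 3.99% of 3559 cells in the wt library. That difference of -1.06 percentage points had an interval of -1.90 to -0.231, beyond counting error. The C1q-positive cells counted in this denominator were 313 and 312. Cells with at least 5 UMIs of Sdc1 and Tm4sf1 together also reached the Cd3 limit. They were 228 of 1489 in the library labelled Lcn2-ko and 156 of 1550 in wt. In an alternative without cells that had at least 10 UMIs of markers of other cell types, the difference stayed within its interval. Cells chosen by C1q or by Sdc1 and Tm4sf1 were not themselves left out, so what they added was not tested. Of cells with a Ptprc UMI, the gene of CD45, members were 2.13% of 5258 cells in the library labelled Lcn2-ko and 2.62% of 5233 in wt, a difference of -0.488 percentage points (-1.08 to 0.0963).

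Within members, genes were compared between the libraries where both together had at least 30 UMIs. In Lcn2-ko-labelled members 93 of 4765 genes (1.95%) were 2-fold or more above their wt level, and 64 genes (1.34%) were 2-fold or more below it. The median log2 ratio over these genes was 0.0075. The highest ratios were mixed in kind and several came from few cells. Nos2, the inducible nitric oxide synthase of macrophages, had 44 UMIs in members of the library labelled Lcn2-ko and 5 in wt members, but 27 of the 44 lay in 1 cell. Mcpt2, a mast cell protease, had 289 and 40 UMIs, of which 282 and 34 lay in 1 cell each. Ccl2 had 80 and 27 UMIs with 55 of the 80 in 1 cell, and Fn1 had 50 and 19 with 31 of the 50 in 1 cell. Cxcl1, a neutrophil chemokine, had 55 and 17 UMIs with 33 and 10 in 1 cell each. Without the top cell in each library, the log2 ratio was 2.30 for Nos2, 0.43 for Mcpt2, 0.39 for Ccl2, 0.55 for Fn1 and 1.86 for Cxcl1, against 3.35, 3.06, 1.78, 1.61 and 1.90 with all members.

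Il7r and Ly6a were among several genes that kept a log2 ratio above 1 without the top cell and without members that had other cell types' markers. Nos2 and Cxcl1 did so too, at 1.36 and 1.78 without those members, as did Prim1 and Sik2, at 1.89 and 1.84. Il7r, the receptor for the T cell survival factor IL-7, had 31 UMIs in 19 members of the library labelled Lcn2-ko and 9 UMIs in 8 wt members (log2 ratio 1.99, exact interval 0.89 to 3.25). C1q-positive macrophages without Cd3 had Il7r UMIs in 25.3% and 16.5% of cells, more than the 16.2% and 5.63% of members, at greater depth. Whether these macrophages express Il7r was not tested, so the Il7r shares of members are not read as expression. Ly6a, which encodes Sca-1 and is induced by interferon, had 107 UMIs in 15 members and 16 UMIs in 11 (log2 ratio 2.95, 2.19 to 3.81). Without the 5 and 9 members that had at least 10 UMIs of markers of other cell types, the log2 ratio of Ly6a was 1.39 and that of Il7r 1.83. Outside members, Ly6a had 532 CPM in the library labelled Lcn2-ko and 155 in wt among NK receptor cells without Cd3, and 210 and 153 among Cd8 NK receptor T cells. Prim1, a DNA primase subunit, had 27 and 8 UMIs, and Sik2, a kinase, 26 and 8, the log2 ratio of Sik2 being 1.91 as counted and 0.86 after thinning to 1000 UMIs per cell.

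Among genes lower in the library labelled Lcn2-ko, Acod1, the enzyme that makes itaconate in activated myeloid cells, had 3 UMIs in 3 members of the library labelled Lcn2-ko and 61 UMIs in 12 wt members, 28 of the 61 in 1 cell. Il1rn, the antagonist of IL-1, had 14 and 50 UMIs, with 10 and 31 of them in 1 cell each. Without members that had at least 10 UMIs of markers of other cell types, the log2 ratio of Acod1 was -2.13, against -4.14 with all members, and that of Il1rn -3.27, against -1.63. Neutrophil markers moved the same way, with 6 genes summing to 7 UMIs in members of the library labelled Lcn2-ko and 57 UMIs in wt members, and their part in these differences was not tested. Parp6 had 4 and 26 UMIs, Fchsd2 5 and 25, and Prpsap1 6 and 26, each spread over at least 21 wt members. Cdc20, which drives exit from mitosis, had 8 and 32 UMIs. After thinning to 1000 UMIs per cell the log2 ratio of Cdc20 was -0.14 and that of Prpsap1 -0.31, both under 2-fold, against -1.79 and -1.91 as counted.

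Of the 15 gene lists, heat shock chaperones had the median ratio farthest from 0 as counted. After thinning each cell to 1000 UMIs their median log2 ratio was -0.64. In that setting Ly49 receptors had 0.76 over 2 genes and cytokine receptors 0.65 over 8. Of 12 measured members of the list, 6 were lower by 1.5-fold or more in the library labelled Lcn2-ko and 0 were higher, where 12.4% of all genes with at least 15 UMIs were lower and 11.6% higher by that fold. The list's median log2 ratio was -0.52. Hspa1a, an inducible HSP70 protein, had 138 UMIs in 26 members of the library labelled Lcn2-ko and 649 UMIs in 60 wt members (log2 ratio -2.02, exact interval -2.30 to -1.76). Hspa1b, its near-copy, had 193 and 643 UMIs (-1.53, -1.77 to -1.29), and Hsph1, a cofactor of HSP70, 59 and 197 UMIs (-1.53, -1.98 to -1.10). Dnajb1 had 92 and 215 UMIs, and Bag3 23 and 53. The constitutive Hspa8 had 670 and 870 UMIs (-0.17) and Hsp90ab1 812 and 1170 (-0.32), both under 1.5-fold.

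The difference in chaperones was not confined to members. Summed over the list, the level was 6707 CPM in members of the library labelled Lcn2-ko and 10064 in wt members. In Cd8 NK receptor T cells it was 6169 and 9229, in T cells with neither Cd4 nor Cd8 and no NK receptor UMI 6088 and 9230, and in NK receptor cells without Cd3 5825 and 6997. Both libraries were digested for 45 minutes at 37 degrees Celsius per the labels. Genotype and any difference in handling cannot be told apart with 1 library per label.

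**Figure D4:**
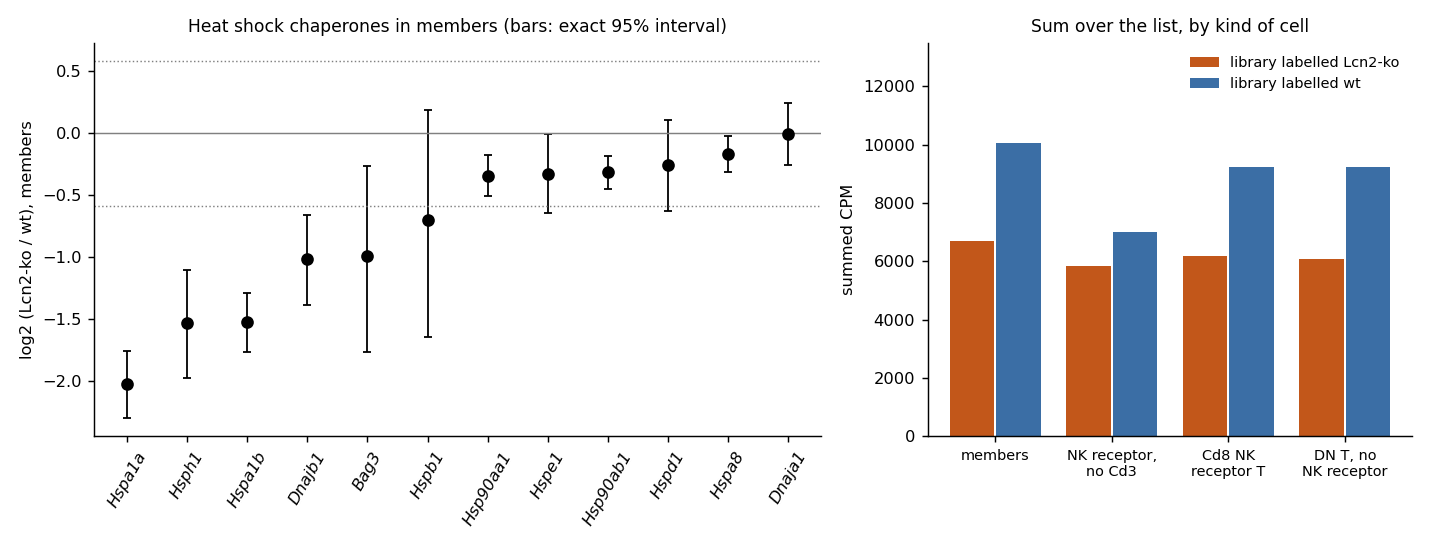
At left, log2 ratio of the library labelled Lcn2-ko to the wt library (y axis) for 12 heat shock genes in members, with exact intervals and dotted lines at 1.5-fold; at right, summed level of the list in CPM in members and 3 kinds of comparison cells. Hspa1a had the lowest ratio, at -2.02, and in all 4 kinds of cells the Lcn2-ko-labelled sum lay below the wt sum.

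Immediate-early genes, which are transcribed within minutes of a stimulus, had a median log2 ratio of -0.31, with 2 of 16 lower, 1 higher and 13 between. Nr4a1, a marker of recent antigen receptor signalling, had 282 and 548 UMIs in members of the library labelled Lcn2-ko and wt (-0.75, -0.96 to -0.54), and Jun had 426 and 735 (-0.58). Jund, a member of the same family, had 1297 and 1264 UMIs (0.25, 0.13 to 0.36). This difference was not confined to members either. Summed over the list, the level was 13030 and 15164 CPM in members and 10973 and 13141 in Cd8 NK receptor T cells. It was 11967 and 12961 in NK receptor cells without Cd3. T cells with neither Cd4 nor Cd8 and no NK receptor UMI had 15894 and 17820.

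The counts of the other lists are to be read against the 11.6% of all genes higher and 12.4% lower by 1.5-fold. Of the 3 Ly49 genes measured outside the rule, Klra3, Klra8 and Klra9, none passed 1.5-fold as counted, with Klra9 just inside the limit at a log2 ratio of 0.58. Without the top cell of each gene 2 of 3 were higher, and after thinning 2 of 2. Klra8, with 7 and 9 UMIs, had a log2 ratio of -0.15 as counted and 2.001 without members that had other cell types' markers. Of 13 other killer cell receptors, 1 was higher, 2 were lower and 10 lay between. Klrb1b, an inhibitory NKR-P1 receptor, was the higher one, with 38 UMIs in members of the library labelled Lcn2-ko and 17 in wt members (log2 ratio 1.37, 0.51 to 2.29), and its ratio turned to -0.21 after thinning each cell to 1000 UMIs. Cd226, an activating receptor for nectins, had 32 and 60 UMIs (-0.70, -1.36 to -0.06). Klrd1, the CD94 chain, had 234 and 298 UMIs, and Klrb1c 116 and 164, both under 1.5-fold. Of 21 signalling adaptors and kinases 3 were higher and 0 lower, and Lck, the kinase that starts T cell receptor signalling, had 249 and 291 UMIs (-0.02). After thinning, 1 of these adaptors and kinases was higher and 2 were lower of 15.

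Cytotoxic granule genes had a median log2 ratio of 0.42, with 4 of 12 higher, 1 lower and 7 between. Without members with Ncr1 UMIs 1 was higher and 2 lower, with a median of 0.13. Gzmb, the protease granzyme B, had 876 and 835 UMIs in members of the library labelled Lcn2-ko and wt (0.28, 0.14 to 0.42). Serpinb9, which protects killer cells from granzyme B, had 231 and 133 UMIs (1.01, 0.69 to 1.32). Gzmc had 179 and 112 UMIs (0.89, 0.54 to 1.24). Gzma had 108 and 62 UMIs, but 90 of the 108 lay in 1 cell, and its log2 ratio of 1.01 became -0.79 once the cell richest in Gzma was dropped from either library. Fasl, the death receptor ligand, was lower with 18 and 40 UMIs (-0.94, -1.83 to -0.11).

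Of 9 cytokines and chemokines, none passed 1.5-fold. Ccl5, a chemokine of effector T cells, had 673 and 1065 UMIs in members of the library labelled Lcn2-ko and wt (-0.45, -0.59 to -0.31), and Xcl1 had 575 and 689 (-0.05, -0.21 to 0.11). Ifng had 21 and 33 UMIs. Cytokine receptors were 2 higher and 1 lower of 14, with Il18r1 at 13 and 33 UMIs (-1.13, -2.18 to -0.17). After thinning, 4 cytokine receptors were higher and 0 lower of 8, and the list's median log2 ratio of 0.12 became 0.65. Of 18 lineage transcription factors 2 were higher and 4 lower. Rora had 46 and 20 UMIs (1.41, 0.62 to 2.25), and Tbx21, which encodes T-bet, had 38 and 78 (-0.83, -1.43 to -0.25). Ikzf2 had 280 and 258 UMIs (0.33, 0.08 to 0.58).

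Residency and adhesion genes were 2 higher, 1 lower and 16 between of 19, with a median of -0.02 (0 higher and 5 lower of 16 after thinning), and Rgs1, a marker of tissue-resident lymphocytes, had 732 and 752 UMIs. Checkpoint receptors were 1 higher and 3 lower of 9, the higher one being Ctla4 with 32 and 19 UMIs. Their median log2 ratio of -0.32 turned to 0.28 over the 4 genes left after thinning, of which 0 were higher or lower, and was -0.04 without members with Ncr1 UMIs. Of 6 costimulatory TNF family genes 1 was higher, Tnfrsf9 (4-1BB), with 174 and 127 UMIs (0.66, 0.33 to 1.00). Interferon response genes were 5 higher and 1 lower of 22, and Ifit3 had 16 and 3 UMIs and Gbp2 49 and 21. Cell cycle genes were 1 higher and 2 lower of 19, with Ube2c at 42 and 93 UMIs (-0.94, -1.50 to -0.40). Without members with Ncr1 UMIs 6 were higher and 1 lower, and after thinning 4 were higher and 0 lower of 15. Mki67 or Top2a UMIs were found in 25.6% and 28.2% of members. Glycolysis and hypoxia genes were 0 higher and 3 lower of 15, and 1 higher and 0 lower of 11 after thinning.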

How the data were processed

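The deposited files hold counts, UMIs per gene and barcode with no normalisation, for BD Rhapsody whole-transcriptome libraries, 1 per genotype label. Cell Ranger and the mm10 build appear in the submitters' processing notes, where neither has a version or a stated role. UMIs mark transcript 3′ ends, per the labels' protocol. The members, gene lists and tests were chosen with earlier results of these data known.

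For each library and kind of cell, UMIs were added up and scaled to a sum of 1e+06 (CPM), with Python (scanpy 1.11.5, scipy 1.17.1). No test was run, since each label has 1 library. Intervals are exact Poisson, Clopper-Pearson, Newcombe and exact conditional binomial, and cover counting error only. A count of 0 was read as up to 3 counts. Gate genes, and rows whose symbol occurs more than once, were left out of gene counts, and Lcn2 also between the libraries. Named genes were the 12 with the highest and 12 with the lowest ratio between libraries among genes with at least 30 UMIs in at least 10 cells (mitochondrial, ribosomal, receptor segment, sex-linked and predicted genes left out), 8 per side against each kind of comparison cell, and up to 4 per list. Other genes named, such as Cd5, Eomes, Serpinb9, Gzmc, Nr4a1, Jun, Tbx21, Gbp2 and Ifit3, were chosen after their values were seen. Alternatives that leave out cells by other cell type markers or by Ncr1 were added after seeing the data. Lists counted genes with at least 15 UMIs and a 1.5-fold limit. Doublets were kept: Scrublet's own threshold marked 2 and 0 cells, so the highest 4% of scores were left out as an alternative. The scripts were tested on simulated data. GENCODE M21 gave positions and shared sequence. Some genes that met the naming rule or belong to a list are not reported here.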

Additional observations from a re-analysis of the deposited data

How the results depend on the processing

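The number of cells limits these values: 117 and 142 members gave fewer than 30 UMIs for most genes. No paired analysis was possible because each label has 1 library. Counts of genes at least 2-fold higher and lower in the library labelled Lcn2-ko, 93 and 64 as reported, were 251 and 261 at a minimum of 15 UMIs, 25 and 16 at 60 UMIs, and 16 and 26 after thinning to 1000 UMIs. Lower genes numbered 105 with means over cells and 100 without the top cell of each gene; for these the cause was not tested, while the minimum and the thinning change the genes open to the count. At a minimum of 25 UMIs, members were higher and lower for 100 and 124 genes against NK receptor cells without Cd3 and for 30 and 41 against Cd8 NK receptor T cells. Against T cells with neither Cd4 nor Cd8 and no NK receptor UMI, 391 were higher with scaling by the median ratio, where the median log2 ratio over genes was -0.18 in the library labelled Lcn2-ko and -0.19 in wt. Without cells holding 10 or more UMIs of other cell type markers, an alternative chosen after seeing the data, 64 were higher and 213 lower.

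Of genes with a log2 ratio of at least 1 in size, signs turned for Gzma without its top cell (-0.79) and without members with Ncr1 UMIs (-2.60), for Klrb1b after thinning (-0.21), and, without cells holding other cell type markers, for Mcpt4 (-0.11) and Cma1 (-0.23) against NK receptor cells without Cd3 and for Arg1 (0.0080) against Cd8 NK receptor T cells. Smaller ratios turned too, among them Klra8, which was -0.15 as reported, 1.96 without the highest doublet scores, 2.001 without members with other cell type markers and 0.79 without its top cell, and Klra3, which was 0.13 and became -0.23 without members with Ncr1 UMIs. Differences between the libraries in the shares of members, chain classes and origin classes stayed within their reported intervals under the alternatives run, but the shares themselves fell after thinning, Trac without Trdc to 44.4% and 47.9% of members and Y-linked only to 28.2% and 21.8%. The share of kept cells differed beyond counting error at 3 NK receptor UMIs, by -0.389 percentage points (-0.769 to -0.0111).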
